A study of Homo sapiens with 6 samples.

Results

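Light polysomes were compared with heavy polysomes at the 132 m5C sites, in 129 genes, that were listed in both libraries with at least 20 reads in each. These were 61.1% of the 216 sites of the light polysome list and 58.7% of the 225 sites of the heavy polysome list, out of 542 sites in the whole series. A site was a member by its presence in both lists, and its level and its number of reads were then compared between the libraries.

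The study identified NSUN6 as an enzyme that places m5C on mRNA. A part of it asked how m5C in mRNA relates to translation. The gradient used HEK293T cells, a human embryonic kidney line that carries the SV40 large T antigen. Wildtype cells were lysed with cycloheximide, which holds ribosomes on mRNA, and the lysate was separated on a sucrose gradient that was pooled into 6 fractions. RNA with 2 to 5 ribosomes made up the light polysome library and RNA with more than 5 ribosomes the heavy polysome library, both after poly(A) selection and bisulfite conversion. Each fraction was 1 library without replicates, so each test below compares those libraries and covers counting error only. The lists hold m5C sites alone, so the cell line was not checked against marker genes here.

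5-methylcytosine is placed on mRNA mainly by NSUN2 and NSUN6. NSUN2 prefers a C followed by G-rich sequence (Type I sites). NSUN6 prefers the motif UCCA behind the methylated C in a hairpin loop (Type II sites). Bisulfite turns unmethylated C into U, which is read as T, while m5C is still read as C, so the m5C level of a site is the share of its reads with C. A ribosome covers a short stretch of mRNA, and a long coding sequence has room for more ribosomes than a short one.

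The windows of 21 nt around the sites that the comparison turned on were read from the GRCh37 genome, spliced and 5′ to 3′ on the strand of the transcript. The first 5 are the sites whose levels differed between the libraries. Capitals mark the methylated C and, at Type II sites, the TCCA behind it.

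WIZ, chr19:15536417-15536437, minus strand, coding exon: cgacacactgCgagagatcct
GIPC1, chr19:14591216-14591236, minus strand, coding exon: aggccattaaCgggcagagcc
RPSA, chr3:39450187-39450207, plus strand, coding exon: gtgttatatcCTCCAggaata
SLC25A6, chrX:1510830-1510850, minus strand, coding exon: ccgccgccatCTCCAagacgg
MT-RNR1, chrMT:1478-1498, plus strand, ribosomal RNA: acacaccgccCgtcaccctcc

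The next windows belong to the sites at the ends of the coverage comparison, with TMEM219, SLC25A39 and ATP6V0E2 at the light end and the other 4 at the heavy end.

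TMEM219, chr16:29979423-29979443, plus strand, coding exon: agtgctgttcCaggaatccta
SLC25A39, chr17:42400887-42400907, minus strand, coding exon: catcagccccCTCCAgcaaat
ATP6V0E2, chr7:149577371-149577391, plus strand, 3′ UTR: aagcaacacgCaggggtcccg
PEF1, chr1:32101073-32101093, minus strand, coding exon: ggagcccctcCgggtagctac
PVRL2, chr19:45375173-45375193, plus strand, coding exon: ccctctgcatCTCCAaagagg
SCO1, chr17:10600606-10600626, minus strand, coding exon: ctcagcactgCgaggccgcca
DBNL, chr7:44099165-44099185, plus strand, coding exon: cccagcactcCTCCAtgtctg

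The shared sites held 65082 of the 75927 listed reads in the light polysome library (85.7%) and 43899 of the 50416 in the heavy polysome library (87.1%). A shared site had 20 to 13059 reads in the light library, with a median of 79, and 21 to 5522 reads in the heavy library, with a median of 104. The 5 sites with the most reads took 54.9% of the shared reads in the light library and 41.6% in the heavy library. RPSA had the most reads in both. Of the 132 sites, 69 lay in coding sequence, 45 in a 3′ UTR and 11 in a 5′ UTR, while 5 lay in exons of noncoding RNA, 1 outside the gene it was listed under and 1 could not be placed.

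To ask whether the level of methylation changed with ribosome load, the C and T reads of each site were compared. Only sites listed at 10% or more in both libraries could be compared, so a site that fell below 10% in either was left out. No listing held fewer than 5 C reads, so at sites with few reads the lowest level listed lay above 10%. This floor differed between the libraries where their reads at a site differed. Most of the compared sites had levels within 10 points of each other in light and heavy polysomes. The median level was 23.1% in the light library, with quartiles of 15.1% and 35.1%, and 20.1% in the heavy library, with quartiles of 13.8% and 35.6%. The difference, light minus heavy, had a median of 0.551 percentage points, and the order-statistic 95% interval of that median over sites ran from -0.837 to 2.38. The level was higher in the light library at 72 sites and in the heavy library at 60. At 68 sites (51.5%) the levels lay within 5 points of each other and at 100 sites (75.8%) within 10 points. Levels ran together across the 132 sites, with Spearman's rho of 0.780 and Pearson's r of 0.854. The sites share both libraries and are not replicates. The interval of the median therefore describes the sites only, and no p is given for the correlation.

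**Figure D1:**
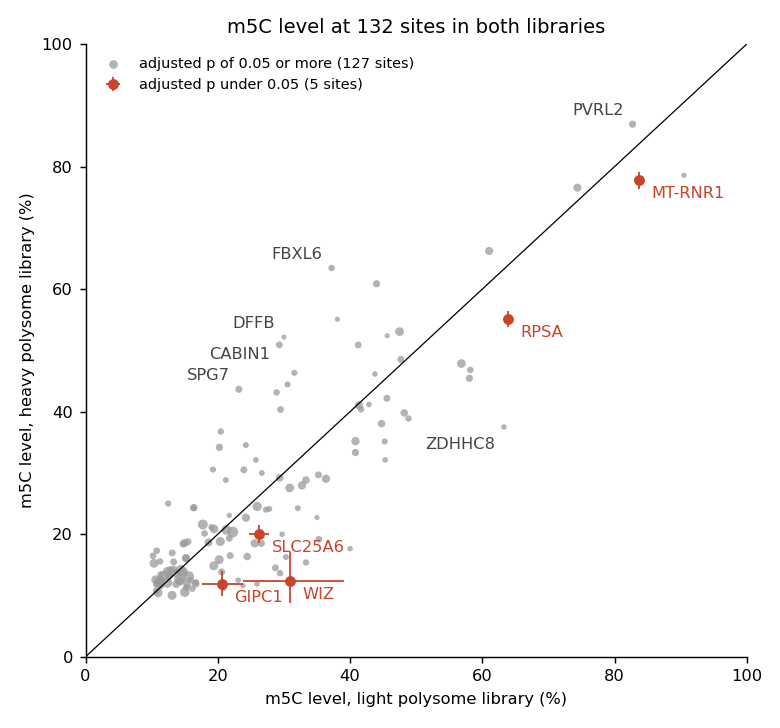
m5C level (%) in the light polysome library on the x axis against the heavy polysome library on the y axis for 132 sites, with the diagonal of equal levels; larger gray points had more reads in the library with fewer, and red points with 95% Wilson bars are the 5 sites past the threshold. All 5 red points lie below the diagonal, while FBXL6, CABIN1, DFFB and SPG7 lie far above it without passing the test.

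In Fisher's exact test (two-sided, with Benjamini-Hochberg adjustment over the 132 sites), 5 sites (3.79%) differed at an adjusted p under 0.05. All 5 were higher in light polysomes and none was higher in heavy polysomes. At an unadjusted p under 0.05 there were 19 sites, 12 higher in light and 7 higher in heavy polysomes. The 5 sites lay in WIZ, GIPC1, RPSA and SLC25A6 mRNA and in the mitochondrial ribosomal RNA gene MT-RNR1.

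The largest of these differences was in WIZ (ENSG00000011451), a zinc-finger partner of the GLP and G9a histone methyltransferases. Its Type I site at chr19:15536427 in coding exon 10 carried C in 43 of 139 reads in light polysomes, a level of 30.9% (95% Wilson interval 23.9 to 39.0). In heavy polysomes it carried C in 29 of 235 reads, a level of 12.3% (8.73 to 17.2). The level was therefore 18.6 points higher in light polysomes (95% Newcombe interval 10.0 to 27.5; Fisher's exact test, adjusted p = 0.000522), and the intervals of the libraries did not overlap. Further up the gradient the site was listed at 47.1% with the large subunit and at 37.1% with monosomes, so the 4 listed levels stood in falling order towards heavy polysomes. Of the neighbours in that order, only the intervals of light and heavy polysomes did not overlap.

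GIPC1 (ENSG00000123159), a PDZ adaptor that links receptors to myosin VI, had a Type I site at chr19:14591226 in coding exon 6. Its level was 20.6% of 656 reads in light polysomes and 11.8% of 1032 reads in heavy polysomes, a difference of 8.76 points (5.15 to 12.5; Fisher's exact test, adjusted p = 4.86e-05). Upstream in the gradient it stood at 19.5% with the small subunit, 19.05% with the large subunit and 20.1% in monosomes. The light polysome level thus lay beside those 3, and the heavy polysome level lay below all of them.

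RPSA (ENSG00000168028) encodes a protein of the small ribosomal subunit that also serves as a laminin receptor. Its Type II site at chr3:39450197 in coding exon 3 stood at 63.9% of 13059 reads in light polysomes and 55.2% of 5522 reads in heavy polysomes. The difference was 8.70 points (7.15 to 10.2; Fisher's exact test, adjusted p = 2.33e-26). The heavy polysome level was the lowest of the 6 libraries and the monosome level, 74.3%, the highest. The genome holds 17 further exact copies of its window, and one listed copy, RPSAP15, stood at 58.0% of 143 reads in light and 45.5% of 77 reads in heavy polysomes (Fisher's exact test, adjusted p = 0.467). Reads of RPSA and of such copies may not be separated.

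SLC25A6 (ENSG00000169100), an ADP/ATP carrier of the inner mitochondrial membrane, had a Type II site at chrX:1510840 in coding exon 1. Its level was 26.2% of 3320 reads in light polysomes and 20.1% of 2871 reads in heavy polysomes, a difference of 6.17 points (4.07 to 8.26; Fisher's exact test, adjusted p = 4.51e-07). In the 4 lighter libraries the level ranged from 30.3% to 32.9%. Both polysome libraries were below that range, heavy polysomes more so.

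MT-RNR1 (ENSG00000211459) is the RNA of the small mitochondrial ribosomal subunit, in which NSUN4 is known to place m5C. It is not read by cytosolic ribosomes, and mitochondrial ribosomes also sediment in sucrose. The site at chrMT:1488 stood at 83.6% of 11026 reads in light polysomes and 77.8% of 3407 reads in heavy polysomes, a difference of 5.85 points (4.31 to 7.43; Fisher's exact test, adjusted p = 1.25e-12). The level was 56.4% in the free library, 59.7% and 76.5% in the small and large subunit libraries and 83.7% in the monosome library, and the light polysome level was near the last of these. The genome holds 6 further exact copies of its window.

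**Figure D2:**
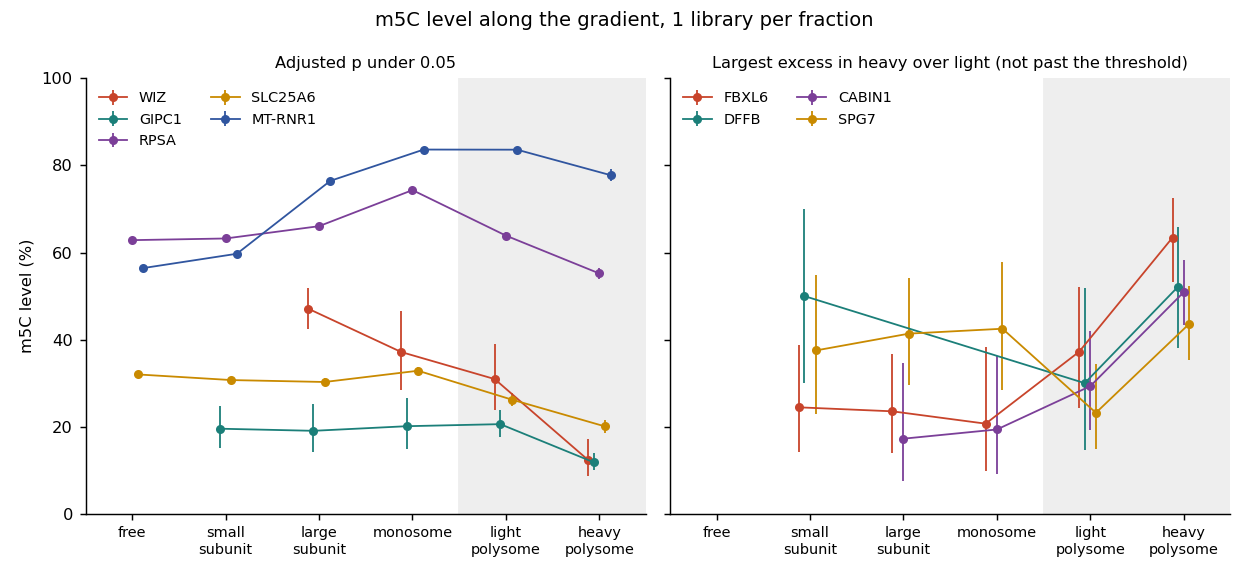
m5C level (%) in each of the 6 fractions, 1 library each, with 95% Wilson bars and the polysome fractions shaded; on the left the 5 sites past the threshold, on the right the 4 sites with the largest excess in heavy over light polysomes. RPSA and SLC25A6 have their lowest level in heavy polysomes, and FBXL6 and CABIN1 their highest.

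When windows with another exact match in the genome were left out, 115 sites were tested and 3 calls were left, WIZ, GIPC1 and SLC25A6. The same 3 sites were called among the 38 sites whose window was unique also after conversion of C to T. There SPG7 was called as well, higher in heavy polysomes (Fisher's exact test, adjusted p = 0.0482 over those 38 sites). It encodes paraplegin, a protease subunit of the inner mitochondrial membrane.

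The sites with the largest differences in heavy direction were singled out after their values were seen, since none passed the test over all 132 sites. FBXL6, which encodes an F-box protein, stood at 37.2% of 43 reads in light and 63.4% of 93 reads in heavy polysomes, a difference of -26.2 points with an interval from -41.9 to -8.18 (Fisher's exact test, adjusted p = 0.0932). The other 3 libraries that listed this coding site held it between 20.7% and 24.4%. CABIN1, a calcineurin inhibitor, stood at 29.3% of 58 reads and 50.9% of 167 reads, a difference of -21.6 points (-34.2 to -6.83; Fisher's exact test, adjusted p = 0.0932). Its level was 17.2% in the large subunit and 19.4% in the monosome library. Both sites are Type II sites in coding exons, with their highest listed level in heavy polysomes.

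SPG7 stood at 23.2% of 69 reads in light and 43.7% of 126 reads in heavy polysomes, a difference of -20.5 points (-32.6 to -6.49; Fisher's exact test, adjusted p = 0.0932). Its pattern was different from that of FBXL6, since it was at 37.5% with the small subunit, 41.4% with the large subunit and 42.5% in monosomes. Here the light polysome library was the one below the others. Its interval (14.8 to 34.4) overlapped those of the small subunit (22.9 to 54.7), large subunit (29.6 to 54.2) and monosome libraries (28.5 to 57.8). Those libraries had 32, 58 and 40 reads at the site. DFFB, the caspase-activated nuclease, was at 30.0% of 20 reads and 52.2% of 46 reads. Its interval of the difference, -42.8 to 3.84 points, held 0 (Fisher's exact test, adjusted p = 0.538). The coding site of SLC22A17 was at 38.1% of 21 and 55.1% of 69 reads (Fisher's exact test, adjusted p = 0.648). TIMM50, a subunit of the mitochondrial import machinery, was at 44% of 75 and 60.9% of 115 reads (Fisher's exact test, adjusted p = 0.307).

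At the other end, the palmitoyltransferase gene ZDHHC8 had the largest difference in light direction, 63.3% of 49 reads in light and 37.5% of 24 reads in heavy polysomes, which was 25.8 points with an interval from 1.52 to 46.1 (Fisher's exact test, adjusted p = 0.328). FBXW9, another F-box gene, was at 40.0% of 25 and 17.6% of 68 reads (Fisher's exact test, adjusted p = 0.307). LEPRE1, a collagen prolyl hydroxylase, was at 33.3% of 42 and 15.4% of 78 reads. TJAP1 and MYCL, the L-Myc gene, followed with 16.1 and 15.8 points. These sites had few reads, and their intervals were several times wider than those of RPSA or SLC25A6.

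**Figure D3:**
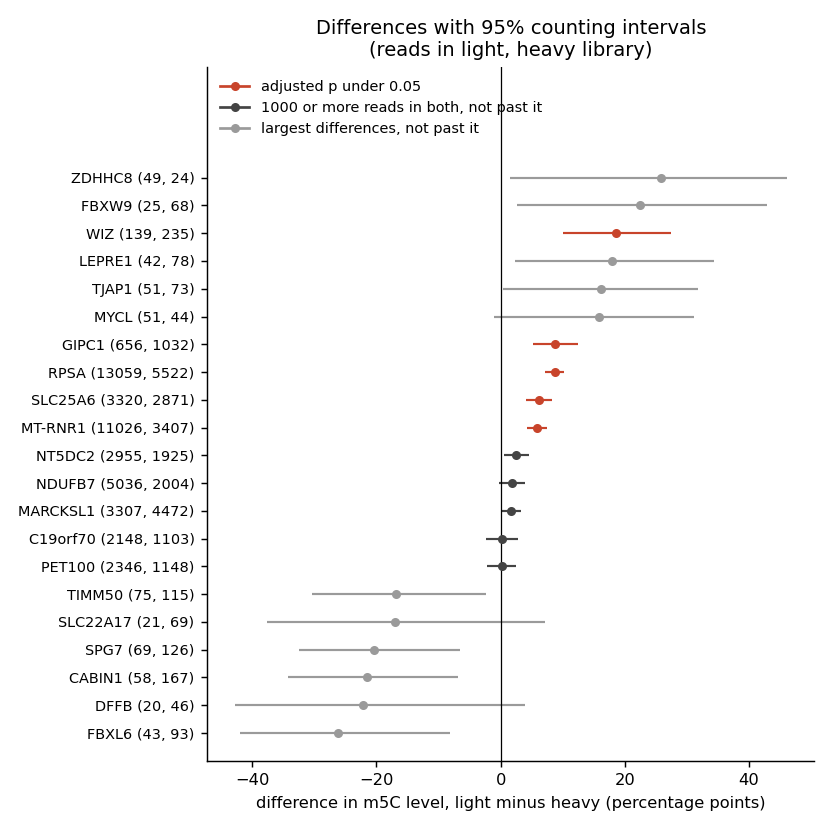
Difference in m5C level, light minus heavy polysomes, in percentage points on the x axis with 95% Newcombe intervals, and the gene with its reads in the light and heavy library on the y axis. Red marks the 5 sites past the threshold, black the other 5 sites with at least 1000 reads in both libraries and gray the largest differences that did not pass it.

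The reads at a site set how small a difference could be seen. The interval of the difference reached a median of 12.2 points to either side over all sites, with a range of 1.54 to 25.9 points, and at 110 sites the interval held 0. Among the 29 sites with at least 200 reads in both libraries the differences ran from -5.57 to 8.98 points, with a median of 1.42, and 21 of the 29 were higher in light polysomes. 4 of the 5 calls were among them. At the other 103 sites the median was -0.0295 points, 51 were higher in light polysomes, and the interval reached a median of 13.2 points to either side. A difference of 10 points was therefore not detectable at most of these.

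At 8 sites both libraries had at least 1000 reads, and all 8 were higher in light polysomes, 3 of them past the test. The other 5 had small differences with narrow intervals. PET100, an assembly factor of cytochrome c oxidase, was at 12.3% and 12.1%, a difference of 0.211 points (-2.17 to 2.46). C19orf70, a subunit of the complex that shapes mitochondrial cristae, was at 14.4% and 14.1%, a difference of 0.242 points (-2.36 to 2.72). At these sites a change of 3 points in either direction lies outside the interval. Of the 8 sites, PET100, MARCKSL1, RPSA and MT-RNR1 have windows with another exact match in the genome.

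NDUFB7, a subunit of respiratory complex I, differed by 1.90 points (-0.240 to 3.97). MARCKSL1, an actin-associated protein, differed by 1.71 points (0.179 to 3.26; Fisher's exact test, unadjusted p = 0.0306, adjusted p = 0.307). NT5DC2, a protein of the nucleotidase family, differed by 2.51 points (0.486 to 4.48; Fisher's exact test, unadjusted p = 0.0161, adjusted p = 0.213). These last differences did not pass the adjusted threshold.

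Summed over the shared sites, 40.0% of light polysome reads and 28.9% of heavy polysome reads carried C, a gap far wider than that of the median site. Without MT-RNR1 the shares were 31.1% and 24.8%. Without MT-RNR1 and RPSA they were 20.6% (20.24 to 21.02) and 20.0% (19.6 to 20.5). The gap in pooled reads thus shrank to less than 1 point without the reads of those genes.

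The motif types and places are described by their counts. Type I here means every site without UCCA behind it, and 53 of the 77 Type I sites had 2 or more G among the next 3 bases, while 24, MT-RNR1 among them, did not. Of the 77 Type I sites, 48 were higher in light polysomes and the median difference was 1.94 points, and 3 were called. Of the 55 Type II sites, 24 were higher in light polysomes, the median was -0.487 points, and 2 were called. The share called over all shared sites was 3.79%. The medians were thus 2.43 points apart, with Type II lower (-2.43). The gap was -5.47 points among sites whose mean level reached 20% and -6.15 points among the 38 sites whose window was unique after conversion. The order-statistic intervals over sites were 0.158 to 3.96 points for Type I and -2.16 to 1.57 points for Type II. Sites are not replicates, so these intervals describe the sites and do not test the gap between the types.

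By place, the median difference was 0.966 points at the 69 coding sites, 0.158 points at the 45 sites in 3′ UTRs and 3.41 points at the 11 sites in 5′ UTRs. All 4 calls in mRNA were among the 69 coding sites, beside 3.79% called over all shared sites. Coding sites also had more reads, with medians of 102 in light and 165 in heavy polysomes. For 3′ UTR sites these medians were 78 and 93. The 5′ UTR sites were all Type I and varied widely, from -14.8 points at PRKCZ, an atypical protein kinase C, to 25.8 points at ZDHHC8. GNAS, which encodes the stimulatory G protein alpha subunit, was among them, at 28.7% of 94 reads in light and 14.5% of 62 reads in heavy polysomes (Fisher's exact test, adjusted p = 0.328). Within coding sequence the median was 2.91 points at Type I sites and -0.147 points at Type II sites.

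**Figure D4:**
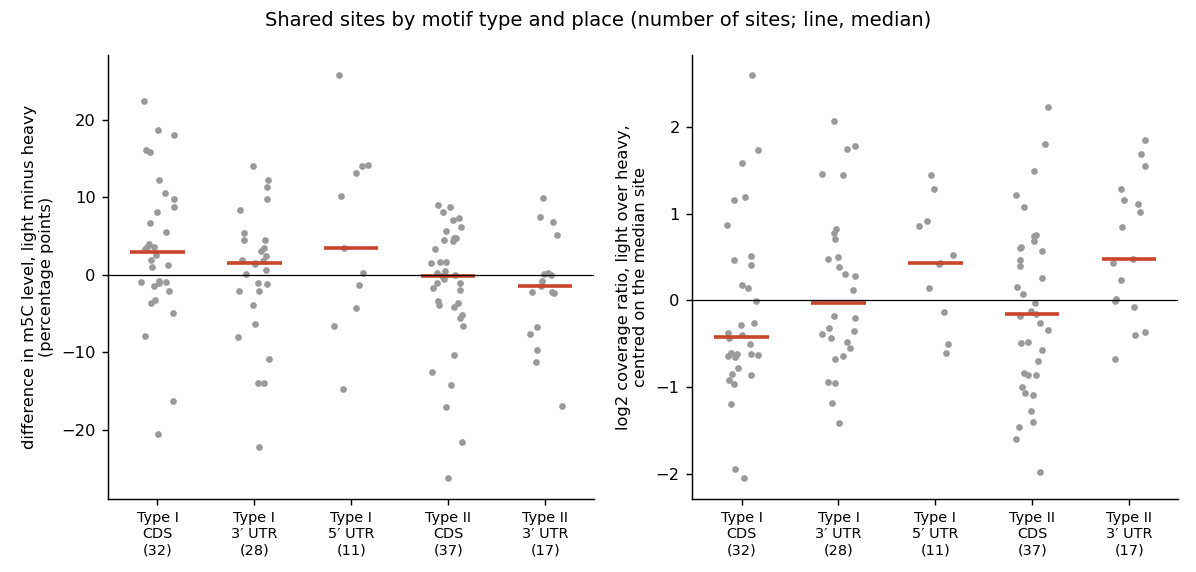
Each gray point is a shared site, grouped by motif type and place, with the number of sites in brackets and the group median in red; the left panel plots the difference in m5C level (percentage points, light minus heavy) and the right panel the log2 coverage ratio of light over heavy polysomes, centred on the median site. Type I coding sites have the lowest median coverage ratio, -0.42, and Type II sites in 3′ UTRs the highest, 0.47.

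To ask which RNAs with a shared site were found more in light or in heavy polysomes, all reads of a site were used. The reads in light polysomes were divided by those in heavy polysomes and set against the median site. Reads with C and with T both count, so the ratio concerns RNA read at the site, methylated or not. The median ratio over the shared sites was 0.839 before centring. On the centred log2 scale, 29 sites (22%) were more than 2-fold higher in light polysomes and 13 sites (9.85%) more than 2-fold higher in heavy polysomes, while 90 lay within 2-fold. Of these, 16 in light and 4 in heavy polysomes had an exact counting interval wholly past 2-fold. The split depended on the scaling. With mapped reads as the scale it was 23 light and 22 heavy, and with the reads at shared sites 5 light and 56 heavy. With at least 50 reads in each library it was 14 light and 14 heavy, and with at least 100 reads 10 and 9, each centred on the median of the sites kept. Scaling and centring do not change the order of the sites.

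The light end was led by TMEM219, which encodes a membrane receptor of an insulin-like growth factor binding protein, with 632 reads in light and 124 in heavy polysomes. Its centred log2 ratio was 2.60 (95% counting interval 2.32 to 2.89), or 6.07-fold. SLC25A39, a mitochondrial glutathione carrier, followed with 1364 and 347 reads and a log2 ratio of 2.23 (2.06 to 2.40). ATP6V0E2, a subunit of the vacuolar proton pump, had 370 and 105 reads and a log2 ratio of 2.07 (1.75 to 2.40). These 3 sites had similar levels in both libraries, 15.2% and 16.1% for TMEM219, 11.1% and 12.1% for SLC25A39 and 14.3% and 12.4% for ATP6V0E2.

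MT-RNR1 was next at 1.95 on the log2 scale of coverage, followed by FAM107B at 1.85, RPS6KB2 at 1.81, FUOM at 1.78 and SZRD1 at 1.75. RPS6KB2 encodes a kinase of ribosomal protein S6, and its Type II coding site was among the more methylated ones, at 61.0% of 444 and 66.2% of 151 reads. FUOM encodes a fucose mutarotase. Apart from MT-RNR1 none of the 8 sites at this end passed the test for level.

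The heavy end was led by PEF1, a calcium-binding protein, with 42 reads in light and 208 in heavy polysomes and a centred log2 ratio of -2.06 (-2.57 to -1.57), or 4.16-fold higher in heavy polysomes. PVRL2, which encodes the adhesion molecule nectin-2, had 81 and 382 reads and a log2 ratio of -1.98 (-2.35 to -1.64). SCO1, a copper chaperone of cytochrome c oxidase, had 71 and 325 reads and a log2 ratio of -1.94 (-2.33 to -1.57). DBNL, an actin-binding adaptor, had 172 and 621 reads and a log2 ratio of -1.60 (-1.85 to -1.35). These 4 are the sites with an interval wholly past 2-fold at this end, and all lie in coding exons.

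They were followed by SLC22A17 at -1.46 on the log2 scale of coverage, the decapping enhancer EDC3 at -1.42, NPLOC4, a cofactor of the p97 unfoldase, at -1.41, and CABIN1 at -1.27. PVRL2 was also one of the 3 most methylated sites in both libraries, at 82.7% and 86.9%. The other 2 were MT-RNR1 and the noncoding RNA RP11-54O7.3, at 90.5% of 21 and 78.6% of 28 reads. None of the 8 sites at the heavy end passed the test for level. Across the 132 sites the difference in level and the log2 coverage ratio had Spearman's rho of 0.0890.

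Coverage of a site went with the coding length of its gene. Among the 125 sites in protein-coding genes with a placed coding sequence, Spearman's rho of the log2 coverage ratio and the coding length was -0.253, and Pearson's r with log2 length was -0.312. The sites more than 2-fold higher in light polysomes had a median coding length of 882 nt (24 sites), against 1627.5 nt for those within 2-fold (88 sites) and 1530 nt for those more than 2-fold higher in heavy polysomes (13 sites). No site of the heavy end had a coding length under 852 nt. CABIN1 was the longest of them, at 6660 nt.

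In a class that was set after seeing the data, 16 sites lay in genes with a coding length under 600 nt, and 9 of them were more than 2-fold higher in light polysomes, with none more than 2-fold higher in heavy polysomes. The shares over all shared sites were 22% and 9.85%. The 9 were PET100, ATP6V0E2, C19orf70, NDUFB7, CALM3, SZRD1, FUOM, NUDT3 and REEP6. The median log2 ratio of the 16 sites was 1.14 and ranged from -0.31 at MRPS25 to 2.07 at ATP6V0E2. H3F3B, which encodes histone H3.3, was within 2-fold at 0.78, and so was MARCKSL1 at -0.18.

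Among the 12 sites with a coding length over 3000 nt the median was -0.25, with none past 2-fold in light polysomes and 1 in heavy polysomes. In the 41 sites with the shortest coding sequences (219 to 1059 nt) the median was 0.24, in the next 42 (1077 to 1860 nt) it was -0.12 and in the longest 42 (1863 to 7320 nt) -0.19. The step was thus between the shortest genes and the rest. The quartiles of the 3 classes overlapped, and WIZ, with a coding length of 5667 nt, was 1.42-fold higher in heavy polysomes. The difference in level had no such relation with coding length (Spearman's rho -0.0308).

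**Figure D5:**
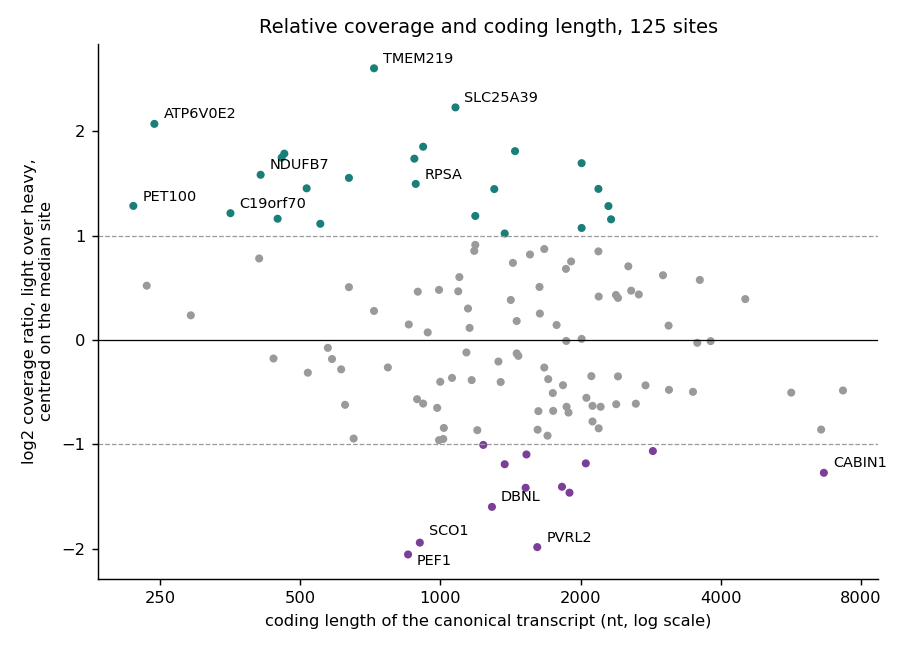
Log2 ratio of reads in light over heavy polysomes, centred on the median site, against the coding length of the gene in nt on a log axis, for 125 sites; dashed lines mark 2-fold, green points are past it in light and purple points in heavy polysomes. ATP6V0E2, PET100, C19orf70 and NDUFB7, all with a coding length under 600 nt, lie above the upper line, and PEF1, PVRL2, SCO1, DBNL and CABIN1 below the lower one.

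Coverage also differed by place. The median log2 ratio was -0.28 at coding sites, of which 10 were past 2-fold in light and 11 in heavy polysomes. At sites in 3′ UTRs it was 0.28, with 12 past 2-fold in light and 2 in heavy polysomes, and at 5′ UTR sites 0.44, with 2 and 0. The 3 places held 69, 45 and 11 sites. Over all shared sites, 22% were past 2-fold in light and 9.85% in heavy polysomes. Coding length differed as well, with a median of 1617 nt for the genes of coding sites and 1167 nt for those of 3′ UTR sites, and the shares of place and length were not tested apart.

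The gene groups were set by gene symbol, so that a gene of like function under another symbol is not counted in them. The ribosomal protein mRNAs RPS2 and RPSA had log2 coverage ratios of 1.74 and 1.49, and their processed copies RPS2P5 and RPSAP15 of 1.51 and 1.15. RPS2, like RPSA, shares its window with other genome positions. Its level was 11.8% of 2131 reads in light and 13.3% of 762 reads in heavy polysomes, a difference of -1.43 points (-4.33 to 1.22; Fisher's exact test, adjusted p = 0.724). The mitochondrial group held 8 sites. They had a symbol such as NDUF, TIMM, MRPS, SLC25 or MT, except C19orf70, which was added to the group by name. The median log2 ratio of the 8 was 0.84. Of the 8, 4 were past 2-fold in light polysomes, C19orf70 at 1.21 among them, beside 22% of all shared sites. The 8 ranged from TIMM50, at -0.36, to SLC25A39. SCO1 at -1.94, SPG7 at -0.62 and PET100 at 1.28 also encode mitochondrial proteins but carry other symbols, so genes with mitochondrial products lay at both ends. In level, 2 of the 8 were called, SLC25A6 and MT-RNR1, beside 3.79% of all shared sites, and the median difference was 1.07 points. SPG7, outside the 8, had the difference of -20.5 points given above.

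The 3 sites of translation factors and tRNA synthetases had log2 coverage ratios from 0.38 to 1.16. They were EIF2S3, a subunit of the factor that brings initiator tRNA, PABPC1, the poly(A)-binding protein, and QARS, the glutaminyl-tRNA synthetase. PABPC1 stood at 17.7% of 1139 reads in light and 21.6% of 806 reads in heavy polysomes, a difference of -3.85 points (-7.50 to -0.288; Fisher's exact test, adjusted p = 0.307). It was the site with the most reads among the 7 sites that were higher in heavy polysomes at an unadjusted p under 0.05. The 6 sites with an SLC (other than SLC25), TMEM or ATP6 symbol held members of both ends, from SLC22A17 at -1.46 to TMEM219 at 2.60. Among membrane proteins with other symbols, PVRL2 lay lower still, at -1.98. The 4 sites with a MAPK, PIK or RPS6K symbol ranged from -0.12 at MAPK3 to 1.81 at RPS6KB2. Kinase genes with other symbols lay lower than most of these, PRKCZ at 0.14, STK32C at 0.18 and the receptor kinase FGFR4 at -0.35. MAPK3, which encodes ERK1, had a level of 56.8% of 234 and 47.9% of 303 reads (Fisher's exact test, adjusted p = 0.328). FBXL6 and FBXW9, both F-box genes, had log2 ratios of -0.86 and -1.19, with differences in level of opposite sign.

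There were 3 genes with more than 1 shared site. GPR137, a lysosomal membrane protein, had a site in the 5′ UTR at 11.3% in light and 15.6% in heavy polysomes and a coding site at 47.7% and 48.5%. The gap between its sites was thus kept in both libraries. PIK3R2, a regulatory subunit of phosphoinositide 3-kinase, had sites in the 3′ UTR at 16.2% and 11.1% and at 13.7% and 11.9%. PRDM13, a transcription factor, had coding sites at 23.8% and 11.6% and at 23.1% and 12.5% that are close enough to share reads, with 21 to 48 reads per value. In each library the first site had 5 C reads and the second 6, so only the total reads differed. The intervals of the differences held 0 (-6.23 to 34.5 and -6.57 to 30.7 points).

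Sites listed in 1 polysome library alone were 84 in the light and 93 in the heavy list. A site can be missing from a list because it had too little coverage or because its level was too low, so these are descriptions of the lists. The light list's own sites had a median level of 13.6% and a median of 50.5 reads, and the heavy list's own sites 16.7% and 42 reads. Their genes had a median coding length of 1452 nt in the light list and 2206.5 nt in the heavy list. Of the 84, 23 were in the monosome list and 35 in no other list, whereas of the 93, 8 were in the monosome list and 69 in no other list.

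With the most reads, the light list alone held sites of NME1-NME2, a read-through transcript of nucleoside diphosphate kinase genes, at 10.8% of 3053 reads, and of the initiation factor EIF4B at 11.5% of 1361 reads. DESI1 (13.3% of 466 reads), TRAF7 (13.2% of 410 reads) and ADAM15 (11% of 300 reads) came next. All 5 levels were near the lowest level in the lists, 10%. TRAF7 also had a shared coding site, at 40.8% and 35.2%.

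The heavy list alone held sites of BUB3, a spindle checkpoint protein, at 13.4% of 583 reads, the translation release factor ETF1 at 10.7% of 289 reads and the DNA repair gene XRCC5 at 12.3% of 261 reads. CHCHD10, a mitochondrial intermembrane space protein, was at 11.6% of 242 reads there, while the free, subunit and monosome libraries listed it at 47.6% to 55.2%. SRCAP, a chromatin remodeller with a coding length of 9690 nt, was at 10.3% of 223 reads and was in no other list. Of these sites CHCHD10 had the widest gap between heavy polysomes and the lighter fractions.

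The monosome library also listed 82 of the 132 shared sites. At these the median level was 26.3% in monosomes, 24.2% in light polysomes and 21.2% in heavy polysomes. The levels stood in falling order from monosomes to heavy polysomes at 25 sites and in the opposite order at 12. Light polysomes had the highest of the 3 levels at 20 sites and the lowest at 25. No single order of the 3 libraries thus held for most sites. All 6 libraries listed 31 of the shared sites, and 22 were listed in the polysome libraries alone.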

How the data were processed

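RNA bisulfite sequencing was performed by the authors on poly(A) RNA of 6 sucrose gradient fractions of HEK293T cells, with 1 library per fraction. Per the methods and the submitters' processing notes, reads were trimmed with cutadapt 1.13 and Trimmomatic 0.36 and mapped to the converted GRCh37 genome with HISAT2, then to transcripts of Ensembl 75 with Bowtie2 2.2.9. Reads with many unconverted cytosines and sites with low support were removed by the authors. The deposited coverage counts the reads that carry C or T at the site, and these counts are not scaled for library size. The deposited m5C level is the fraction of these reads with C. The deposited P-value comes from the authors' one-sided binomial test, set against each gene's own conversion rate. No test here used it, and the largest one listed was 0.000242. It is not stated whether counts were taken before or after read removal, which could change the level where a read holds several m5C. Listed sites had a level of at least 10%, at least 20 reads and at least 5 C reads, so a site that fell below these in a library left the comparison.

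The product of level and coverage gave the C reads, whole numbers at all 1222 listings within a tolerance of 1e-06. Sites listed in both polysome libraries were joined by position. Levels were compared with Fisher's exact test (two-sided), with Benjamini-Hochberg adjustment over the 132 shared sites and a threshold of 0.05, with Newcombe intervals for differences and Wilson intervals for levels (95%). The ratio of reads was centred on its median over shared sites and called past 2-fold, with exact Clopper-Pearson intervals. Without molecular identifiers, PCR copies count as reads, and only counting error enters the intervals and tests. Sites were placed in GENCODE 44 lifted to GRCh37, which matched the genes of 131 of the 132 sites, and coding length is that of the canonical transcript. Gene symbols are those of the deposited lists, some of them older names. Type II sites have UCCA behind the methylated C and the rest are Type I. Windows of 21 nt were searched for other exact matches on both strands of the genome, as it is and with C converted to T. The reads were paired and longer than a window, so another match of a window does not show that its reads were misplaced.

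The members, groups and tests were chosen with earlier results of these data known. Genes were named by rule: every site past the threshold, the 8 sites at each end of the coverage ratio, genes with more than 1 shared site, the 3 sites with the highest levels, and the 5 sites with the most reads in each list alone. The largest differences in level and the sites with at least 1000 reads were singled out afterwards, and so were the members named for a place, a coding length class or a gene group. Read minimums, a level minimum, other tests and adjustments, other scalings and the removal of repeated windows were tried as alternatives. The test was checked on simulated reads drawn with counting error alone, so the check does not cover spread between libraries or PCR copies. Python 3.11.15, numpy 2.4.6, scipy 1.17.1, pandas 2.3.3, pysam 0.24.0 and matplotlib 3.10.9 were used.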

Additional observations from a re-analysis of the deposited data

How the results depend on the processing

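With 1 library per fraction no replicate could be left out, and culture-to-culture spread is not known. No paired analysis was possible because each fraction had a single library. Of 63 values computed under alternatives for the main results, 47 were counted as kept and 16 as moved. A value counted as kept could still change in size. The median difference in level, for example, was 1.92 points among the 38 sites whose window was unique in the converted genome. Calls for level numbered 3 to 5, fewest without windows with another match in the genome as it is (3), an alternative chosen after seeing the data that drops RPSA and MT-RNR1. All calls were higher in light polysomes except SPG7 among the 38 sites whose window was unique in the converted genome. The difference in level was 3.27 points as a mean weighted by reads, against a median of 0.551. Sites past 2-fold in light polysomes, 29, became 14 with at least 50 reads and 10 with at least 100 reads, where the heavy count was 14 and 9, so the excess in light polysomes was not kept. With at least 50 reads the new centring moved TMEM219 from 2.60 to 2.32. They became 19 with a mean level of at least 20% and 7 in the converted-unique set. They became 5 when scaled by reads at shared sites and 5 by reads at all listed sites. Sites past 2-fold in heavy polysomes, 13, became 2 in the converted-unique set, 56 and 58 under those scalings, and 22 with mapped reads, which moved the median log2 ratio to -0.82, -0.84 and -0.17. The gap of Type II to Type I medians, -2.43 points, became -5.47 with a mean level of at least 20% and -6.15 in the converted-unique set. The gap of coding to 3′ UTR medians, 0.809 points, became 4.72 with a mean level of at least 20%. The rank correlation with coding length, -0.253, was -0.648 in the converted-unique set. The cause was not tested. Depth limits the rest, since 50 sites had a level under 15% in a library, close to the filter.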
